A study of Mus musculus with 12 samples.

Results

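The genes described here are 34 mouse genes of the tricarboxylic acid (TCA) cycle, of the steps that feed pyruvate into it and of the export of citrate from mitochondria, with the isocitrate dehydrogenases left out. They were listed by name, and all 34 were found among the 49671 rows of the deposited count table by their Ensembl identifiers. All 34 passed the filter on low counts and were among the 17812 genes tested, and the lowest raw count of any of them in any library was 14. The material was archived mouse brain tissue, fixed in formalin and kept in paraffin, sequenced as 12 libraries in 4 groups of 3. The tumour groups were IDH1_R132H (tumours made with the glioma mutant of isocitrate dehydrogenase 1), IDH1WT (made with the unmutated enzyme) and PDGFA (made with platelet-derived growth factor A), and the comparison tissue was normal brain. All 12 samples are labelled with lox alleles that include those of Cdkn2a and Atrx, and with N::TVA, a transgene for the avian receptor that lets RCAS viruses enter a cell, except that the normal brains are marked as negative for TVA. Whether PDGFA was also given with either form of IDH1 is not in the labels, nor is an age, sex or batch. Each sample has its own number as its title, but what the number stands for is not given. Nothing else says whether the samples of a group are separate animals, so p-values measure the spread between these samples.

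The TCA cycle burns acetyl-CoA in the mitochondrial matrix and passes its electrons to the respiratory chain. Pyruvate made in the cytosol enters mitochondria through the mitochondrial pyruvate carrier and is turned into acetyl-CoA by the pyruvate dehydrogenase complex, which kinases switch off and phosphatases switch on. Pyruvate carboxylase refills the cycle with oxaloacetate, a step known in brain mainly from astrocytes, and citrate leaves for the cytosol through the citrate carrier, where it feeds lipid synthesis. Malic enzymes turn malate back into pyruvate, and the cytosolic one yields NADPH. Neurons are known as cells with a high rate of oxidative metabolism.

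In the test of all tumours against normal brain 3 of the 34 genes passed, and the DNA just before their starts is shown because these are the genes the results turn on. RefSeq gives a promoter for 31 of the 34 genes, and the 250 bases before the RefSeq start (build GRCm38.p6; for Me1 the outermost start) were searched on both strands for 6 motifs. The stretches below run 5′ to 3′ on the strand of the gene and stop where an exon of GENCODE M21 begins. They are chr9:86695954-86696164 on the minus strand for Me1, chr4:40143015-40143080 on the plus strand for Aco1 and chr16:17928220-17928469 on the minus strand for Slc25a1. Capitals mark motif matches.
Me1: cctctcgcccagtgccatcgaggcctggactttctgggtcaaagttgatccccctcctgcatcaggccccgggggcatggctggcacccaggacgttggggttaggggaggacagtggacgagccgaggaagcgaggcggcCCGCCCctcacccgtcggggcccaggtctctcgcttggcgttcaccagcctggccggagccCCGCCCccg
Aco1: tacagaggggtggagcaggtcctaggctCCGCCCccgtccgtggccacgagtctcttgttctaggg
Slc25a1: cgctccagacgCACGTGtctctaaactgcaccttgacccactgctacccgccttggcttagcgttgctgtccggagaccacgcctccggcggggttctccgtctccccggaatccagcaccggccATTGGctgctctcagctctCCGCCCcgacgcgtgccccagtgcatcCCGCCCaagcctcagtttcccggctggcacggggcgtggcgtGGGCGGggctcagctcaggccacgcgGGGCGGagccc
Each of the 3 windows held the GC box GGGCGG, with 3 matches in Me1, 3 in Aco1 and 4 in Slc25a1, some of them beyond the stretch shown. That motif occurred in 24 of the 41 RefSeq promoters of the 34 genes and in 32.7% of 32851 RefSeq promoters of the same length. Slc25a1 also held the E-box CACGTG, found in 6.02% of promoters, with the hypoxia core ACGTG (16.6% of promoters) inside it, and CCAAT, found in 33.8%. Me1 has another RefSeq start, not shown, whose window held ACGTG and CCAAT. The antioxidant core TGACNNNGC, present in 10.2% of promoters, and the extended half-site TCAAGGTCA, present in 0.387%, were not in these 3 windows. A match is a description of letters and not a bound site.

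Library totals ran between 6507923 and 14277395 counts, and the 34 genes together took between 0.133% and 0.275% of a library. Levels are given as CPM, the counts of a gene scaled to a fixed library size, after TMM scaling, which sets libraries to a common level. IDH1_R132H tumour 3 had the lowest share, and 48.5% of its counts fell on ribosomal RNA-like genes, a set that includes mitochondrial ribosomal RNA. PDGFA tumour 1 stood apart from the other tumours in its cell markers: its summed oligodendrocyte precursor markers reached 741 CPM, against 682 to 710 CPM in the normal brains, while the other 8 tumours ran between 1598 and 7728 CPM. In the same tumour the summed myelin markers were 11624 CPM, the highest of all 12 libraries, and the astrocyte markers were 1298 CPM, the lowest. Normal brains 1 and 2 were more alike than any other pair of a group, their counts giving a chi-square of 2.59 averaged over genes. Each of them with normal brain 3 gave 30.0 and 28.9, and pairs within the tumour groups gave 12.3 to 347. Brains 1 and 2 differed by more than counting noise, which repeat libraries of 1 tissue can also do. They were kept as 2 samples because the labels list them as 2, each with its own number as title. Results with them summed are given beside the main ones.

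In all tumours against normal brain, 3 of the 34 genes were higher and none was lower at an adjusted p under 0.05 (edgeR's quasi-likelihood test, adjusted over 17812 genes). Among all genes tested, 5.22% were called in either direction, 3.71% higher and 1.5% lower. The 3 were Me1, the cytosolic malic enzyme, Aco1, the cytosolic aconitase that doubles as an iron regulatory protein, and Slc25a1, the mitochondrial citrate carrier. The median log2 fold change over the 34 genes was −0.07, beside −0.01 over all genes, and 23 of the 34 estimates were below 0. At an unadjusted p under 0.05 there were 7 of the 34 genes, and 4199 of all genes. DESeq2 called Mpc1 lower in addition, so that it called 11.8% of the 34, where it called 11.7% of all genes. Limma with voom weights, which also weight each library by its estimated quality, called 10 of the 34. It added Mpc1, Pdp1, Pcx, Me3, Dlat, Ogdhl and Mdh1 as lower. It called 33.7% of all genes, so that its share of the 34 (29.4%) was below its share of all genes. The library weights were 3.38, 3.06 and 0.783 for normal brains 1, 2 and 3. Among the tumours they ran between 0.327 for PDGFA tumour 1 and 3.19 for IDH1_R132H tumour 2. This fit thus leaned on normal brains 1 and 2, the most alike pair. Without any 1 of the normal brains edgeR called none of the 34 and 0, 1 or 3 of all genes. With normal brains 1 and 2 summed, none of the 34 or of all genes was called in edgeR.

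**Figure D1:**
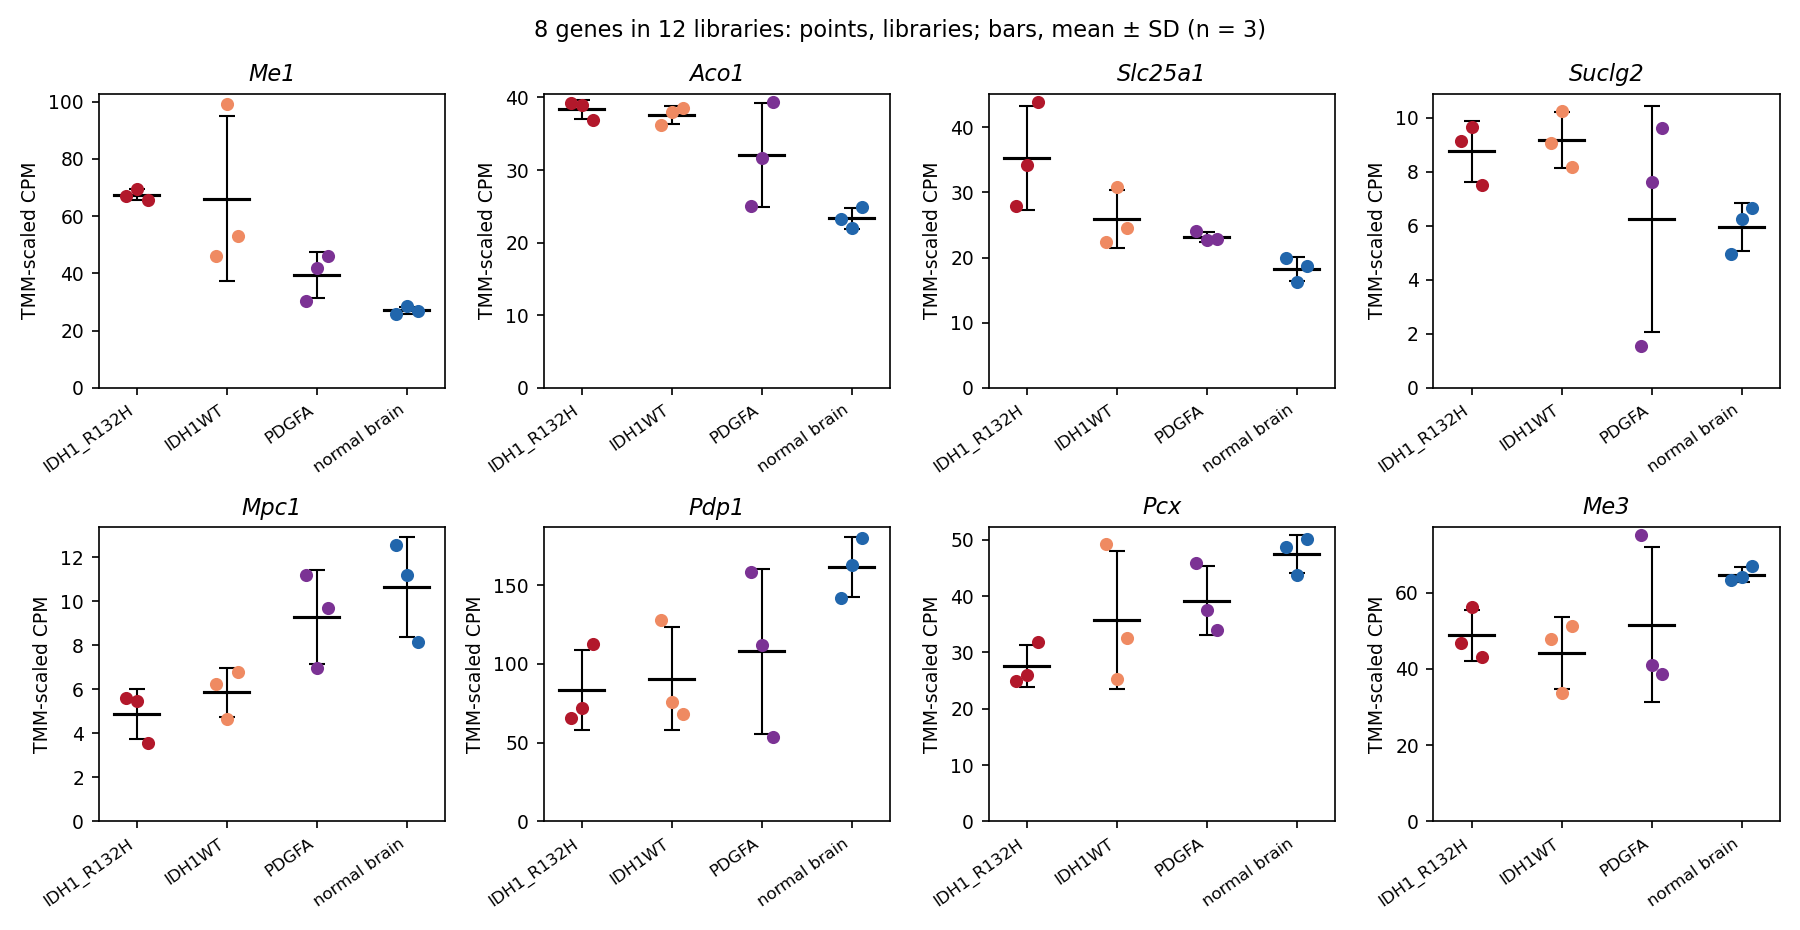
TMM-scaled CPM (vertical axis, from 0) of 8 genes in the 12 libraries, by group on the horizontal axis. Points are libraries and bars show mean ± SD (n = 3). In Me1, Aco1 and Slc25a1 every tumour lies above every normal brain, and in Suclg2, Mpc1, Pdp1, Pcx and Me3 at least 1 tumour lies within or beyond the range of the normal brains.

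Me1 (chr9:86581371-86695953, minus strand) had the largest difference of the 34 genes. It was at 66.9, 69.5 and 65.7 CPM in the IDH1_R132H tumours, 46.1, 99.1 and 52.9 CPM in the IDH1WT tumours, and 30.4, 41.8 and 46.1 CPM in the PDGFA tumours, against 25.9, 28.4 and 26.8 CPM in the normal brains. All 9 tumours were above all 3 normal brains, and PDGFA tumour 1 came closest to them. The tumours averaged 57.6 ± 20.3 CPM (SD, n = 9) and the normal brains 27.0 ± 1.30 CPM (SD, n = 3), a log2 fold change of 1.05 with a standard error (SE) of 0.22, or 2.07-fold (edgeR, adjusted p = 0.0239). The call held without each tumour in turn and ended without any one of the normal brains, with adjusted p between 0.103 and 0.139 (edgeR), and with normal brains 1 and 2 summed (adjusted p = 0.122).

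Aco1 (chr4:40143081-40198338, plus strand) was at 39.3, 39.0 and 36.9 CPM in the IDH1_R132H tumours, 36.2, 38.0 and 38.6 CPM in the IDH1WT tumours, and 25.04, 31.7 and 39.4 CPM in the PDGFA tumours, against 23.2, 22.0 and 24.9 CPM in the normal brains. The groups did not overlap, but PDGFA tumour 1 lay just above the highest normal brain. Aco1 was 1.54-fold higher in the tumours (log2 difference 0.62, SE 0.14; edgeR, adjusted p = 0.0284). The call ended without IDH1_R132H tumour 2 (edgeR, adjusted p = 0.0599), without any normal brain (adjusted p between 0.103 and 0.169), with normal brains 1 and 2 summed (adjusted p = 0.158) and without the filter on low counts (adjusted p = 0.0783).

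Slc25a1 (chr16:17925223-17928219, minus strand) was at 27.9, 34.2 and 43.8 CPM in the IDH1_R132H tumours, 22.4, 30.9 and 24.5 CPM in the IDH1WT tumours, and 24.0, 22.7 and 22.8 CPM in the PDGFA tumours, against 19.9, 16.2 and 18.6 CPM in the normal brains. Every tumour was above every normal brain, and IDH1_R132H tumours 2 and 3 were the highest of all. The log2 fold change was 0.60 (SE 0.16), or 1.51-fold (edgeR, adjusted p = 0.0494), close to the threshold. It missed the threshold on the deposited log2 values (limma, adjusted p = 0.0599), without the filter on low counts (adjusted p = 0.121), and without any one of IDH1_R132H tumours 2 and 3, IDH1WT tumours 2 and 3 and PDGFA tumours 2 and 3 (adjusted p between 0.0526 and 0.0892). It also missed it without any normal brain (edgeR, adjusted p between 0.153 and 0.239) and with normal brains 1 and 2 summed (adjusted p = 0.193).

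These 3 genes were the only ones of the 34 whose 9 tumours all lay above the 3 normal brains, and in none did all tumours lie below. Over all genes tested, 4.67% separated upwards and 2.84% downwards in this way. Some marker lists moved in the same comparison: 10 of 12 oligodendrocyte precursor markers, 10 of 12 proliferation genes and 5 of 12 endothelial markers were called higher. Over all genes tested, 3.71% were called higher. Other lists moved little: 1 of 12 astrocyte markers and 1 of 12 myelin markers were called. Of 14 microglia and macrophage markers and 15 neuron markers none was. All these calls, too, ended without any 1 of the normal brains and with normal brains 1 and 2 summed. Summed precursor markers ran between 741 and 7728 CPM in the tumours and between 682 and 710 CPM in the normal brains, and summed proliferation genes between 124 and 741 CPM in the tumours and between 19.5 and 26.6 CPM in the normal brains. Their part in the results on the 34 genes was not tested. In bulk tissue, fewer cells of a type and less RNA per cell cannot be told apart.

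**Figure D2:**
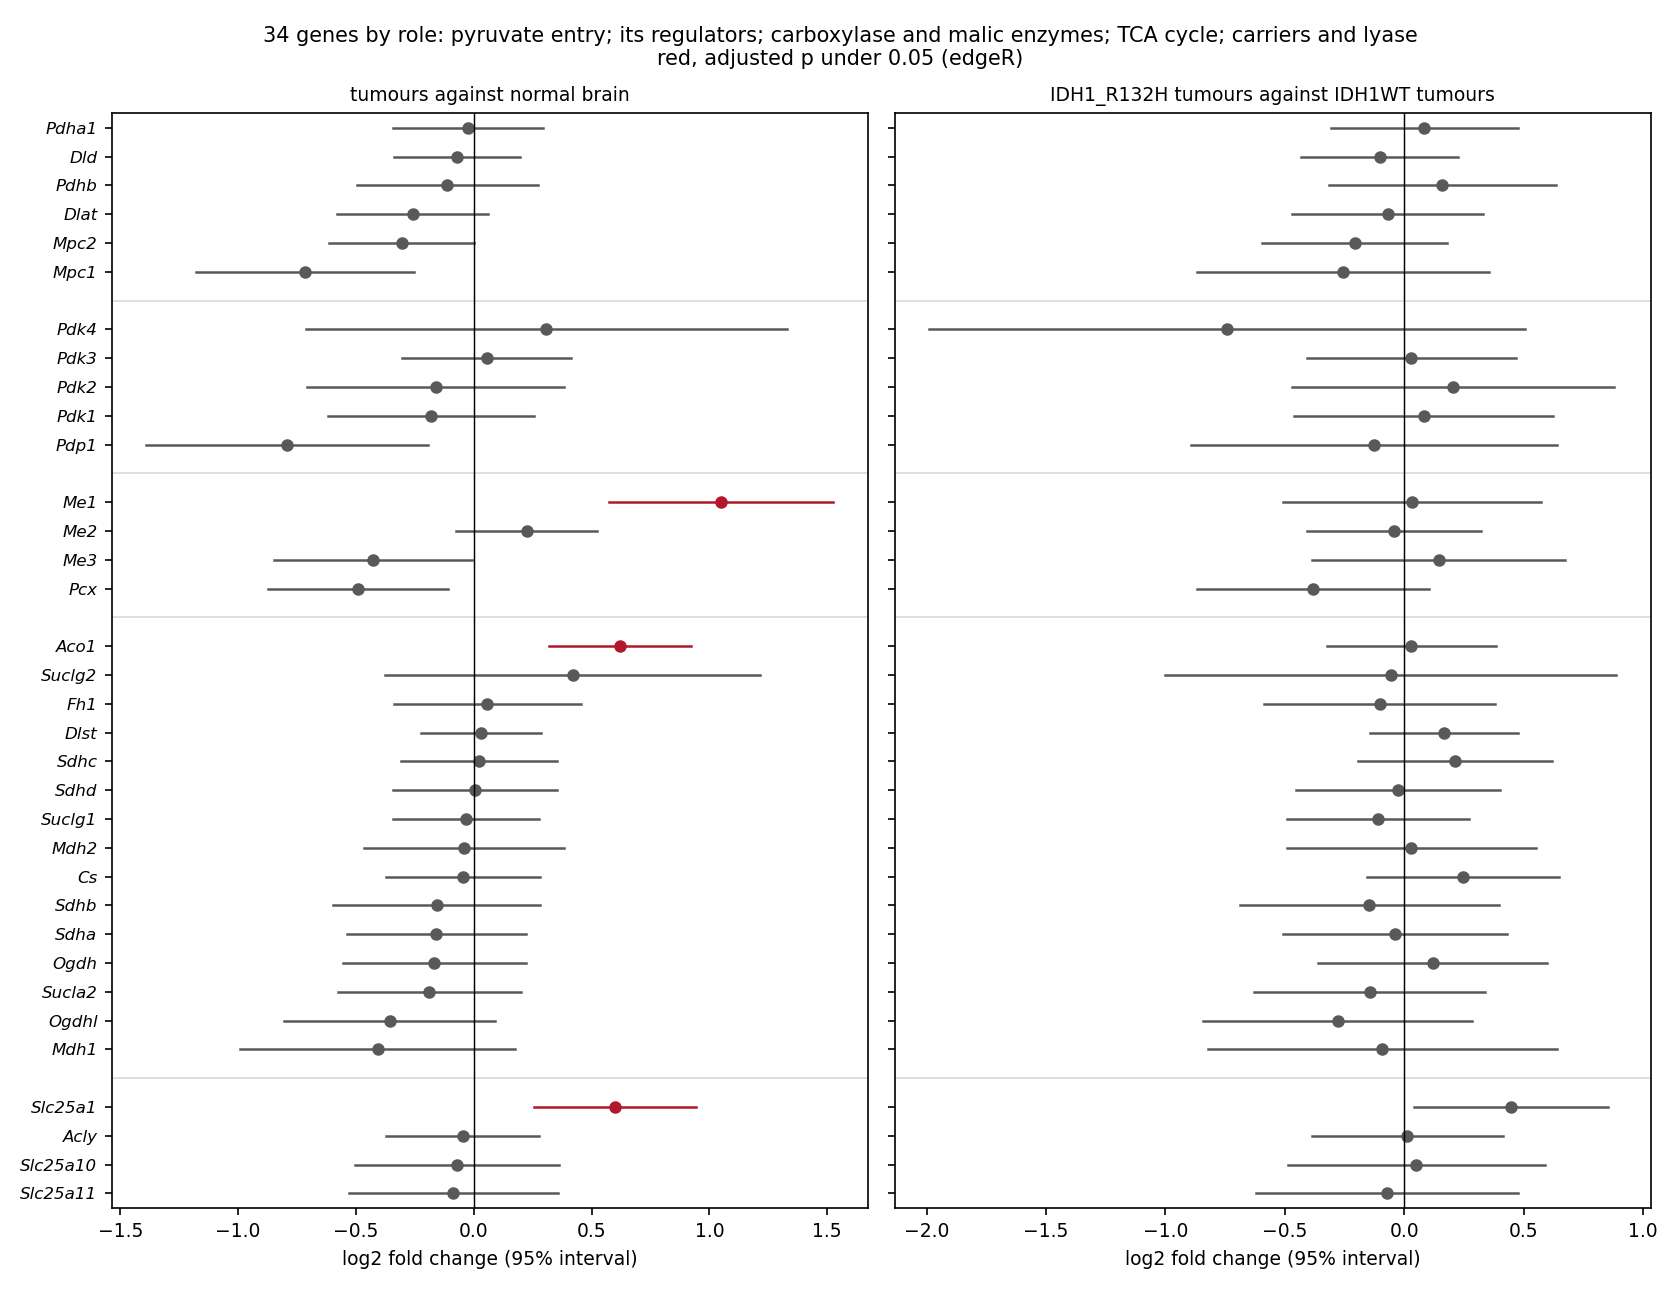
Log2 fold change (horizontal axis) with 95% interval of each of the 34 genes, grouped by role down the page, in all tumours against normal brain (left) and in IDH1_R132H against IDH1WT tumours (right). Red points passed an adjusted p of 0.05 in edgeR: Me1, Aco1 and Slc25a1 on the left, none on the right.

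Of the 6 genes of pyruvate entry, none was called in all tumours against normal brain, 1 had an unadjusted p under 0.05 in edgeR, and all 6 estimates were below 0. That gene was Mpc1 (chr17:8282904-8297661, plus strand), 1 of the 2 partners of the mitochondrial pyruvate carrier. It was at 5.59, 5.49 and 3.55 CPM in the IDH1_R132H tumours, 6.23, 4.63 and 6.77 CPM in the IDH1WT tumours, and 11.2, 6.96 and 9.70 CPM in the PDGFA tumours, against 12.6, 11.2 and 8.14 CPM in the normal brains. The IDH1_R132H and IDH1WT tumours were all below the normal brains and the PDGFA tumours overlapped them. The log2 fold change over all tumours was −0.72 (SE 0.21; edgeR, adjusted p = 0.0676; DESeq2, adjusted p = 0.0283), and it passed in edgeR without PDGFA tumour 1 (adjusted p = 0.0328). Exons of Mpc1 overlap those of 4930506C21Rik on the opposite strand over 23.1% of their length, and a pseudogene Mpc1-ps is annotated, so its counts are uncertain where the counting did not use strand.

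Mpc2, the other carrier partner, had 24.3, 29.5 and 38.1 CPM as the lowest, median and highest of the 9 tumours, against 30.8, 35.3 and 45.2 CPM in the normal brains. The groups overlapped, and the log2 fold change was −0.31 (SE 0.14; edgeR, adjusted p = 0.216). Pdha1, the catalytic E1 alpha subunit of pyruvate dehydrogenase and the highest of the pyruvate entry genes per kilobase, had 126, 153 and 184 CPM as the lowest, median and highest tumour, against 146, 155 and 169.6 CPM in the normal brains. Its log2 fold change of −0.02 had an interval between −0.34 and 0.29, which spans 0. Dlat, the E2 subunit, had 58.4, 66.2 and 94.9 CPM as lowest, median and highest tumour, against 81.3, 86.3 and 84.6 CPM in the normal brains (log2 fold change −0.26, SE 0.15; edgeR, adjusted p = 0.312). Only PDGFA tumour 1 lay above the normal brains in Dlat. Exons of Pdha1 overlap Map3k15 on the opposite strand over 16.1% of their length, with the same limit as for Mpc1. Pdhb, the E1 beta subunit, and Dld, the E3 subunit, had log2 fold changes of −0.11 and −0.07.

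Of the 5 regulators of pyruvate dehydrogenase, none was called, and 1 had an unadjusted p under 0.05 in edgeR. Pdp1, the phosphatase that activates the complex, was at 65.4, 71.8 and 112 CPM in the IDH1_R132H tumours, 128, 76.0 and 67.9 CPM in the IDH1WT tumours, and 158, 112 and 53.5 CPM in the PDGFA tumours, against 142, 163 and 179.9 CPM in the normal brains. Of the 9 tumours, 8 lay below every normal brain, and PDGFA tumour 1 lay among them. Its log2 fold change of −0.79 (SE 0.28) was the lowest of the 34 and did not pass the test (edgeR, adjusted p = 0.106), and it passed without PDGFA tumour 1 (adjusted p = 0.0269) and without the filter on low counts (adjusted p = 0.000536). The 4 kinases that inhibit the complex had log2 fold changes of −0.18 for Pdk1, −0.16 for Pdk2, 0.05 for Pdk3 and 0.31 for Pdk4. Pdk4, known as a kinase induced by fasting and fatty acids, spread the most, between 3.80 CPM in PDGFA tumour 1 and 24.7 CPM in PDGFA tumour 2, so its interval ran between −0.71 and 1.33.

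Among pyruvate carboxylase and the malic enzymes, Me1 was called and the other 3 were not. Pcx, pyruvate carboxylase, was at 24.9, 25.9 and 31.8 CPM in the IDH1_R132H tumours, 49.2, 25.2 and 32.7 CPM in the IDH1WT tumours, and 45.9, 37.5 and 34.1 CPM in the PDGFA tumours, against 48.7, 43.7 and 50.1 CPM in the normal brains. All IDH1_R132H tumours were below the normal brains, and 1 IDH1WT and 1 PDGFA tumour reached them. Its log2 fold change was −0.49 (SE 0.18; edgeR, adjusted p = 0.115), and it passed without IDH1WT tumour 1 (adjusted p = 0.0313). Me3, a mitochondrial malic enzyme, had 33.5, 46.9 and 75.0 CPM as lowest, median and highest tumour, against 63.2, 64.1 and 66.9 CPM in the normal brains (log2 fold change −0.43, SE 0.19; edgeR, adjusted p = 0.203). The highest tumour in Me3 was PDGFA tumour 1 and the other 8 lay below the normal brains. Me2, the other mitochondrial malic enzyme, had 18.6, 21.1 and 28.8 CPM as lowest, median and highest tumour, against 18.6, 18.1 and 18.8 CPM in the normal brains (log2 fold change 0.22, SE 0.14; edgeR, adjusted p = 0.352).

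Per kilobase of exon, the cytosolic and mitochondrial malic enzymes differed in how their ranks moved. Me1 had 14.97 CPM per kilobase in the tumours and 7.02 CPM per kilobase in the normal brains, rank 15 and rank 25 of the 34 genes, while Me3 held rank 30 in both. The ratio of Me1 to Me3, per kilobase, was 1.54, 4.53 and 11.2 as lowest, median and highest of the 9 tumours, against 1.56, 1.69 and 1.52 in the normal brains. PDGFA tumour 1 had the lowest ratio and was the only tumour within the range of the normal brains. This ratio was chosen after its parts were seen and has no test.

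Of the 15 enzymes of the TCA cycle, Aco1 alone was called, and it alone had an unadjusted p under 0.05 in edgeR. The median log2 fold change of the 15 was −0.04, with 9 estimates below 0. Mdh1, the cytosolic malate dehydrogenase of the malate-aspartate shuttle, was the highest of the 34 genes per kilobase, at 69.8 CPM per kilobase in the tumours and 92.5 CPM per kilobase in the normal brains. It was at 139, 157 and 212 CPM in the IDH1_R132H tumours, 243, 127 and 171 CPM in the IDH1WT tumours, and 299.5, 137 and 127 CPM in the PDGFA tumours, against 205, 204 and 304 CPM in the normal brains. The tumours overlapped the normal brains, and the log2 fold change was −0.41 (SE 0.27; edgeR, adjusted p = 0.384).

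Ogdhl, the brain-enriched relative of the 2-oxoglutarate dehydrogenase E1 subunit, had 38.7, 49.96 and 84.97 CPM as lowest, median and highest tumour, against 67.9, 67.3 and 77.6 CPM in the normal brains (log2 fold change −0.36, SE 0.21; edgeR, adjusted p = 0.318). Ogdh, the main E1 subunit, had 167, 211 and 291 CPM as lowest, median and highest tumour, against 244, 229 and 258 CPM in the normal brains (log2 fold change −0.17, SE 0.18; edgeR, adjusted p = 0.611). Cs, citrate synthase, had 112, 138 and 202 CPM as lowest, median and highest tumour, against 142, 137 and 163 CPM in the normal brains (log2 fold change −0.04, SE 0.15). None of the 3 passed the test in this comparison. The flavoprotein of succinate dehydrogenase, Sdha, had a log2 fold change of −0.16, and its partners Sdhb, Sdhc and Sdhd had −0.16, 0.02 and 0.00. Fumarase, Fh1, had 0.06, the mitochondrial malate dehydrogenase Mdh2 had −0.04, and Dlst, the E2 subunit of 2-oxoglutarate dehydrogenase, had 0.03. For those 7 genes edgeR gave adjusted p between 0.622 and 0.989.

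Succinyl-CoA ligase has 1 alpha subunit, Suclg1, and 2 alternative beta subunits, the ATP-forming Sucla2 and the GTP-forming Suclg2. Suclg2 was the lowest of the 34 genes per kilobase, and had 9.13, 9.67 and 7.50 CPM in the IDH1_R132H tumours, 9.08, 10.2 and 8.19 CPM in the IDH1WT tumours, and 1.57, 7.63 and 9.61 CPM in the PDGFA tumours, against 4.97, 6.26 and 6.65 CPM in the normal brains. In 8 tumours Suclg2 lay above all normal brains and in PDGFA tumour 1 it lay below them. The log2 fold change was 0.42 (SE 0.37; edgeR, adjusted p = 0.523). Sucla2 had 54.1, 67.0 and 101 CPM as lowest, median and highest tumour, against 74.1, 73.9 and 87.5 CPM in the normal brains (log2 fold change −0.19, SE 0.18; edgeR, adjusted p = 0.563). Suclg1 had a log2 fold change of −0.03.

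Of the 4 genes of citrate and dicarboxylate export, Slc25a1 was called and the other 3 had log2 fold changes between −0.09 and −0.05. Acly, the ATP-citrate lyase that splits exported citrate into acetyl-CoA, had 105, 130.1 and 159 CPM as lowest, median and highest tumour, against 134, 136 and 141 CPM in the normal brains. Its log2 fold change was −0.05 (SE 0.15), so no difference was detected in the lyase. The difference between the 2 genes was not tested. Slc25a11, the oxoglutarate carrier, and Slc25a10, the dicarboxylate carrier, had −0.09 and −0.07.

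Each tumour group was also set against the same 3 normal brains, so these comparisons share their controls. In IDH1_R132H tumours, 3 of the 34 genes were called higher and 1 lower, where 4.83% of all genes were called higher and 2.35% lower. The log2 fold changes were 1.32 for Me1 (SE 0.26; edgeR, adjusted p = 0.0189), 0.95 for Slc25a1 (SE 0.19; adjusted p = 0.0193), 0.72 for Aco1 (SE 0.16; adjusted p = 0.0266) and −1.10 for Mpc1 (SE 0.28; adjusted p = 0.0359). Pcx was next with −0.79 (SE 0.22; edgeR, adjusted p = 0.0523). In 5 of the 34 genes all IDH1_R132H tumours lay above the normal brains and in 8 all lay below, where 19.4% and 18.8% of all genes did so. All 4 calls ended without IDH1_R132H tumour 2, without any normal brain and with normal brains 1 and 2 summed, where edgeR called at most 1 of all genes. Without IDH1_R132H tumour 1, Me1 and Slc25a1 were called, with 3.49% of all genes. Without IDH1_R132H tumour 3, Me1, Slc25a1 and Aco1 were, with 4.53% of all genes.

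In IDH1WT tumours, 1 of the 34 genes was called higher, where 1.57% of all genes were. This was Me1, which differed by 1.29 log2 units (SE 0.26; edgeR, adjusted p = 0.0317), and Aco1 followed with 0.69 (SE 0.16; adjusted p = 0.0553). The call on Me1 ended without any 1 of IDH1WT tumours 2 and 3, IDH1_R132H tumours 1 and 2 or the normal brains, with normal brains 1 and 2 summed (edgeR, adjusted p = 0.151) and on the deposited log2 values (limma, adjusted p = 0.0645). In PDGFA tumours, none of the 34 genes was called in edgeR, where 0.303% of all genes were, and 2 had an unadjusted p under 0.05. DESeq2 and limma on voom weights or on the deposited log2 values also called none. The lowest p was that of Aco1, which differed by 0.46 (SE 0.16; edgeR, adjusted p = 0.312) and was called without PDGFA tumour 1 (adjusted p = 0.0434). Me1 had 0.55 (SE 0.25; edgeR, adjusted p = 0.474).

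The comparison of mutant with unmutated IDH1 asks whether the tumours of these groups differ in these genes. A difference could not be assigned to the mutation alone, since the labels give no batch and do not say where PDGFA was given. In IDH1_R132H against IDH1WT tumours, none of the 34 genes was called in edgeR, DESeq2 or either limma fit, and edgeR called none of all genes (0%). DESeq2 and limma also called none of all genes, while edgeR without the filter on low counts called 79. At an unadjusted p under 0.05 there was 1 of the 34 genes, and there were 475 of 17812 genes. That gene was Slc25a1, with 27.9, 34.2 and 43.8 CPM in the IDH1_R132H tumours, against 22.4, 30.9 and 24.5 CPM in the IDH1WT tumours. The groups overlapped, and the log2 fold change was 0.45 (SE 0.19), with a 95% interval between 0.04 and 0.85 (edgeR, unadjusted p = 0.0338, adjusted p = 0.9996). In none of the 34 genes did the groups separate, where 6.75% of all genes did.

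The next smallest p-values in that comparison belonged to Pcx and Cs. Pcx had a log2 fold change of −0.38, with an interval between −0.87 and 0.10, and Cs had 0.25, with an interval between −0.16 and 0.65. Cs was at 138, 139.6 and 202 CPM in the IDH1_R132H tumours, against 154, 112 and 137 CPM in the IDH1WT tumours, and the groups overlapped. Me1 had 0.03, with an interval between −0.51 and 0.57, and Aco1 had 0.03, with an interval between −0.32 and 0.38. These intervals leave room for differences of either sign, and the p-values do not show that the groups are alike. The median SE in this comparison was 0.29 over all genes.

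Against PDGFA tumours, IDH1_R132H tumours also had no called gene among the 34 or among all genes (0%) in edgeR, where DESeq2 called 146 of all genes and none of the 34, and limma with voom weights 396 and none. At an unadjusted p under 0.05 there were 4 of the 34 genes and 1940 of all genes. The log2 fold changes were −0.91 for Mpc1 (SE 0.28), 0.60 for Slc25a1 (SE 0.19), 0.77 for Me1 (SE 0.25) and −0.51 for Pcx (SE 0.22), with adjusted p between 0.335 and 0.438 in edgeR. The IDH1_R132H and PDGFA tumours did not overlap in these 4 of the 34 genes and in no other of them, where 13.1% of all genes separated. The 4 were named for their p in this same comparison, so their separation is not a further result. PDGFA tumour 1, with precursor markers near those of normal brain, is 1 of the 3 PDGFA tumours, and without it none of the 34 genes was called in edgeR either.

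In IDH1WT against PDGFA tumours, edgeR called none of the 34 genes or of all genes (0%), and 2 of the 34 had an unadjusted p under 0.05, with 1038 of all genes. DESeq2 called 12 of all genes. The 2 were Me1, at 0.74 log2 units (SE 0.25; edgeR, adjusted p = 0.808), and Mpc1, at −0.65 (SE 0.27; adjusted p = 0.833). In IDH1_R132H tumours against the other 6 tumours, edgeR called none either (0%), and 3 of the 34 and 1147 of all genes had an unadjusted p under 0.05. Slc25a1 was first, with 0.52 (edgeR, unadjusted p = 0.00619, adjusted p = 0.690), followed by Mpc1 and Pcx. DESeq2 called 24 of all genes there and limma with voom weights 245, and neither called any of the 34.

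Over the 9 tumours, Ogdh had a Pearson correlation of 0.960 with the mean log2 CPM of 15 neuron markers, and Sdha 0.958, and 30 of the 34 correlations were above 0, as were 45.1% of those of the 17797 genes other than the markers. In 14 of the 34 genes r exceeded 0.7, where 12.3% of the 17797 genes did. The median r was 0.661 over the 34 genes and −0.0998 over the 17797. Without the 2 tumours farthest from the median, 12 of the 34 exceeded 0.7, and the share of all genes was not computed for that set of tumours. Without PDGFA tumour 1 and IDH1_R132H tumour 3, a choice made after seeing the data, 9 of the 34 and 10.9% of the 17797 genes exceeded 0.7. Each correlation shares the scaling of its libraries between both measures, and 3 tumours per group are too few for a value within a group.

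**Figure D3:**
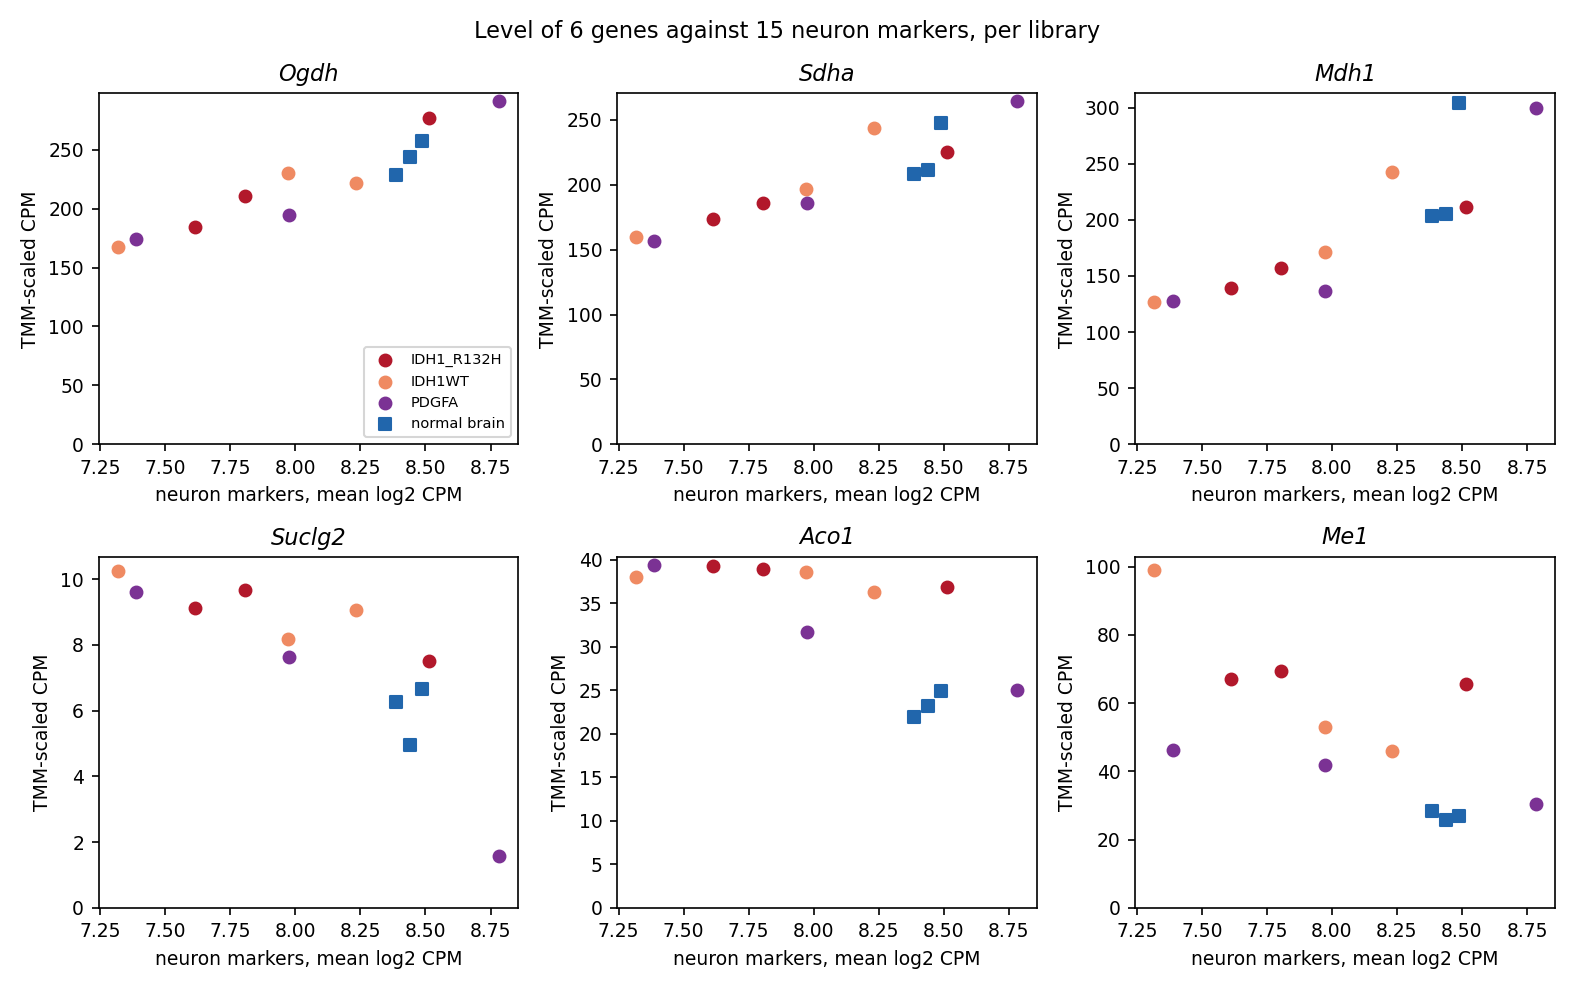
TMM-scaled CPM of 6 genes (vertical axes, from 0) against the mean log2 CPM of 15 neuron markers (horizontal axis) in each of 12 libraries, coloured by group. Ogdh, Sdha and Mdh1 go up with the neuron markers over the tumours, and Suclg2 is lowest where the neuron markers are highest, in PDGFA tumour 1.

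The summed neuron markers were 4789, 5725 and 9179 CPM in the IDH1_R132H tumours, 7383, 4214 and 6222 CPM in the IDH1WT tumours, and 9941, 6544 and 4513 CPM in the PDGFA tumours, against 8649, 8385 and 8831 CPM in the normal brains. IDH1_R132H tumour 3 and PDGFA tumour 1 passed all 3 normal brains. The same 2 had the highest share of ribosomal RNA-like counts of the tumours, 48.5% and 19.5%, but they differed in make-up. That set includes mitochondrial ribosomal RNA, so its share overlaps the mitochondrial share given next and cannot be added to it. In IDH1_R132H tumour 3 the gene Gm42418 took 35.6% of all counts and mitochondrial genes took 11.98%. In PDGFA tumour 1 Gm42418 took 0.647% and mitochondrial genes took 20.5%. The summed precursor markers were 6675, 7728 and 3585 CPM in the IDH1_R132H tumours, 2541, 7541 and 3793 CPM in the IDH1WT tumours, and 741, 1598 and 4839 CPM in the PDGFA tumours. The 4 tumours with the most precursor marker RNA were the 4 with the least neuron marker RNA, and the part of either measure in the correlations was not tested. None of the 15 markers was called in all tumours against normal brain in edgeR (2 at an unadjusted p under 0.05) or DESeq2. Limma with voom weights called 9 of the 15, where it called 33.7% of all genes. Without IDH1_R132H tumour 3 and PDGFA tumour 1, edgeR called 6 of the 15 and 15.7% of all genes. The median log2 fold change of the 15 was −0.41.

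Ogdh was at 185, 211 and 277 CPM in the IDH1_R132H tumours, 222, 167 and 230.2 CPM in the IDH1WT tumours, and 291, 195 and 174 CPM in the PDGFA tumours. The 2 tumours with the most neuron marker RNA had the most Ogdh and the 2 with the least had the least. Its Spearman rho was 0.917, and r stayed at 0.915 over the 7 tumours left without PDGFA tumour 1 and IDH1WT tumour 2, the 2 farthest from the median (exact permutation test over 362880 orderings, two-sided, p = 9.92e-05 for r and p = 0.00131 for rho, adjusted over 17812 genes 0.0140 and 0.0365). Sdha was at 174, 186 and 225 CPM in the IDH1_R132H tumours, 244, 159.7 and 197 CPM in the IDH1WT tumours, and 265, 186 and 157 CPM in the PDGFA tumours. Its rho was 0.950 and its r was 0.918 without the same 2 tumours (exact permutation, p = 0.000105 for r and 0.000353 for rho, adjusted 0.0145 and 0.0243).

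With p-values adjusted over all 17812 genes, 8 of the 34 correlations passed 0.05 by r and 5 by rho (exact permutation tests), as did 7.05% and 6.3% of all genes. Sucla2 had r = 0.921 and rho = 0.933, Mdh1 r = 0.920 and rho = 0.883, and both passed on both measures. Dlat had r = 0.907, Pdk2, a pyruvate dehydrogenase kinase, 0.876, and Pdp1 0.857, and these passed by r and not by rho. Without PDGFA tumour 1 and IDH1WT tumour 2, r was 0.874 for Sucla2, 0.842 for Mdh1, 0.844 for Dlat, 0.866 for Pdk2 and 0.850 for Pdp1. Without PDGFA tumour 1 and IDH1_R132H tumour 3, r was 0.889 for Ogdh, 0.939 for Sdha, 0.904 for Sucla2, 0.832 for Mdh1, 0.824 for Dlat, 0.815 for Pdk2 and 0.734 for Pdp1.

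Suclg2 was the only one of the 34 with a negative correlation that passed, with r = −0.732 and rho = −0.900 (exact permutation, p = 0.00159 and 0.00203, adjusted 0.0359 and 0.0422). Its r was −0.687 without PDGFA tumour 1 and IDH1WT tumour 2, and −0.643 without PDGFA tumour 1 and IDH1_R132H tumour 3. The 2 beta subunits of succinyl-CoA ligase thus ran opposite ways over the tumours. Per kilobase, the ratio of Suclg2 to Sucla2 was 0.0134 in PDGFA tumour 1, the lowest, with a median of 0.105 and a highest value of 0.154 over the 9 tumours, against 0.0578, 0.0731 and 0.0656 in the normal brains. Aco1 had r = −0.704 and rho = −0.767 (exact permutation, adjusted 0.115 and 0.113), and Me1 r = −0.603 and rho = −0.667 (adjusted 0.228 and 0.195). Without the 2 farthest tumours r was −0.413 for Aco1 and 0.0855 for Me1. Without PDGFA tumour 1 and IDH1_R132H tumour 3 it was −0.486 for Aco1 and −0.592 for Me1. The value for Me1 thus depended on which tumours were left out. Slc25a1 had r = 0.0886 and Mpc1 r = 0.124. Without the 2 farthest tumours r was 0.461 for Slc25a1 and −0.744 for Mpc1. Without PDGFA tumour 1 and IDH1_R132H tumour 3 it was −0.408 for Slc25a1 and 0.0355 for Mpc1.

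**Figure D4:**
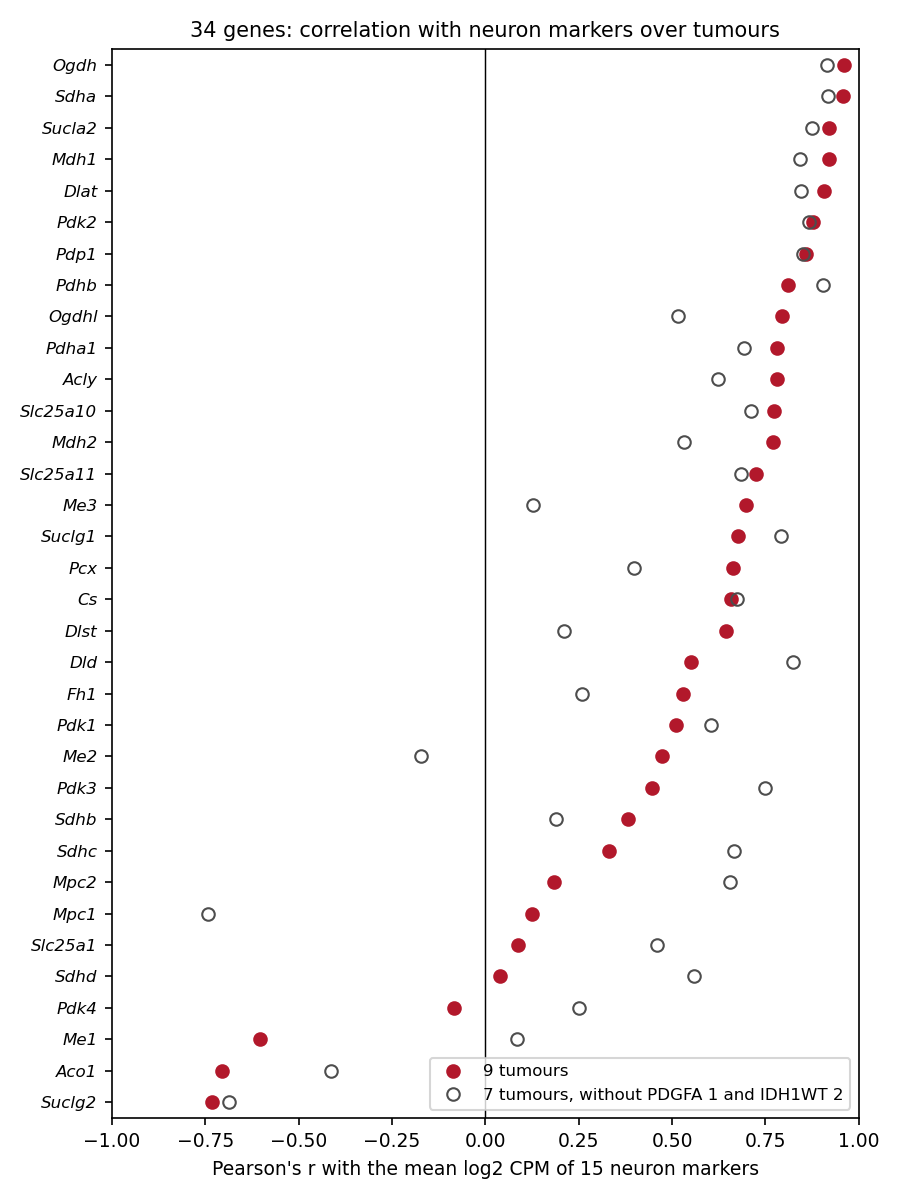
Pearson's r of each of the 34 genes with the mean log2 CPM of 15 neuron markers (horizontal axis, between −1 and 1), over 9 tumours (filled) and over 7 tumours without PDGFA tumour 1 and IDH1WT tumour 2 (open). Ogdh and Sdha stand at the top of the page reading downwards, with 0.960 and 0.958, and Suclg2 stands last with −0.732.

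A list of 32 further genes of the pathway was examined, of which 31 were tested. In all tumours against normal brain 1 was called higher in edgeR and none lower, with 4 at an unadjusted p under 0.05, and the median log2 fold change was −0.06. The called gene was Slc16a1, a monocarboxylate carrier of lactate and pyruvate, with 90.2, 89.0 and 78.2 CPM in the IDH1_R132H tumours, 83.4, 70.0 and 71.5 CPM in the IDH1WT tumours, and 68.9, 90.1 and 84.0 CPM in the PDGFA tumours, against 46.7, 41.2 and 66.2 CPM in the normal brains. All tumours were above all normal brains, by 0.65 log2 units (SE 0.16; edgeR, adjusted p = 0.0352). No gene of the list was called without any 1 of IDH1_R132H tumours 1 and 2, PDGFA tumour 2, IDH1WT tumour 3 and the normal brains, or with normal brains 1 and 2 summed. Without PDGFA tumour 1, 4 were called, and 8 with voom weights, where 13.5% and 33.7% of all genes were called. Next by p were Acss2, the cytosolic acetyl-CoA synthetase, with −0.45 (SE 0.15; adjusted p = 0.0971), and Slc16a3, a lactate exporter, with 1.67 (SE 0.57; adjusted p = 0.0984). Of 21 genes of the respiratory chain and ATP synthase none was called by edgeR, DESeq2 or limma, none had an unadjusted p under 0.05 in edgeR, and the median was −0.13.

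Among the 5 isocitrate dehydrogenases, Idh1 was called higher in all tumours, by 0.92 log2 units (SE 0.21; edgeR, adjusted p = 0.0306). The call ended without IDH1_R132H tumour 2, without any 1 of the normal brains and with normal brains 1 and 2 summed. It was at 53.7, 52.2 and 70.7 CPM in the IDH1_R132H tumours, 47.6, 56.3 and 39.1 CPM in the IDH1WT tumours, and 22.2, 36.2 and 46.7 CPM in the PDGFA tumours, against 22.5, 23.8 and 27.0 CPM in the normal brains. Whether RNA of the introduced IDH1 was counted there was not tested.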

How the data were processed

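RNA-seq of formalin-fixed mouse brain tumours and normal brain gave 12 libraries, 3 in each of 4 groups. The genotype is not reported here in full. The authors deposited a table of raw counts per Ensembl gene and a table of log2 values. Per the submitters' processing notes, STAR 2.5.2b, featureCounts 1.5.1 of Subread, DESeq2 1.16.1 and build GRCm38 were used. For the annotation and the strand setting: not given in the sources used here. The deposited log2 values served as an alternative. Symbols, coordinates and exon lengths came from GENCODE M21.

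Counts were filtered with filterByExpr (minimum count 10, minimum total 15), scaled by TMM and fitted with edgeR 4.0.16 (quasi-likelihood, 1 coefficient per group, 12 libraries, 8 residual degrees of freedom, R 4.3.3). In all, 8 comparisons were tested, each with Benjamini-Hochberg adjustment over 17812 genes, and the script was tested on simulated data. Alternatives were DESeq2 1.42.0 and limma 3.58.1, either with voom and a quality weight per library or on the log2 values. Further ones were other size factors, no filter, removal of ribosomal RNA-like and mitochondrial genes, and omission of libraries. The 34 genes, the other lists and the tests were chosen with earlier results of these data known. Values per library are given for genes called anywhere, the 14 smallest p in tumours against normal brain, the 3 smallest in IDH1_R132H against IDH1WT tumours and the highest gene per kilobase of each role. Genes named for their correlation with neuron markers, and the limit of r at 0.7, and their values without IDH1_R132H tumour 3 and PDGFA tumour 1, were chosen after values were seen. Correlations used log2 CPM with a prior count of 2 and exact permutation of the tumours (Python 3.11.15).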

Additional observations from a re-analysis of the deposited data

Results flagged for a closer look

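Among the 9 tumours, 3 of the 34 genes had 1 library far from the nearest other relative to the whole range, and in each it was PDGFA tumour 1. Me2 was highest there, at 28.8 CPM. Aco1 was lowest, at 25.04 CPM, and Suclg2 was lowest, at 1.57 CPM. Chance flags about 1 in 20 groups, and 34 were looked at. In the same tumour the summed oligodendrocyte precursor markers were 741 CPM, the myelin markers 11624 CPM, the astrocyte markers 1298 CPM, the microglia and macrophage markers 46.7 CPM and the neuron markers 9941 CPM. Their part in the 3 values was not tested.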

How the results depend on the processing

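The number of the 34 genes called in all tumours against normal brain was 3 and became 10 with limma voom weights, 7 without IDH1_R132H tumour 3 and PDGFA tumour 1, and 0 with normal brains 1 and 2 summed, and ran between 0 and 6 when libraries were left out singly. Of all genes, 5.22% were called, and 33.7%, 15.7% and 0% under those 3 settings. The 0 came without any normal brain (0, 1 or 3 of all genes called) and the 6 without PDGFA tumour 1 (13.5% of all genes). For IDH1_R132H tumours against normal brain the 4 became 11 with voom weights and 0 with the summed brains, where 41.1% and 0% of all genes were called, and ran between 0 and 6. Without IDH1_R132H tumour 2, 1 of all genes was called. For IDH1WT tumours the 1 (1.72% of all genes) became 2 with other size factors (1.89%), with DESeq2 (7.14%), without the filter (3.66%) and without the 2 named tumours (6.96%). It became 4 with voom weights (16.9% of all genes), and 0 on the deposited log2 values (0.206%) and with the summed brains (0%). Leaving libraries out singly, it ran between 0 and 2. For PDGFA tumours the 0 (0.303% of all genes) became 1 (Aco1) without the 2 named tumours (5.19%). It ran between 0 and 1 when libraries were left out singly, and the 1 came without PDGFA tumour 1 (4.40% of all genes). The cause was not tested. In the 4 comparisons between tumours the count was 0 in all 20 alternatives.

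Of the log2 fold changes recomputed, for 17 genes in 2 comparisons, those that changed sign had not passed the test. Leaving libraries out singly, log2 fold changes in all tumours against normal brain ran between -0.12 and 0.034 for Cs and between -0.095 and 0.033 for Pdha1. In IDH1_R132H against IDH1WT tumours they ran between -0.16 and 0.45 for Me1, -0.41 and 0.22 for Pdp1, -0.018 and 0.27 for Me3, -0.20 and 0.055 for Dlat, -0.29 and 0.19 for Mdh1, -0.14 and 0.036 for Suclg2, -0.27 and 0.028 for Sucla2, -0.013 and 0.28 for Pdha1, and -0.12 and 0.15 for Acly. There Suclg2 was 0.092 with voom weights and 0.039 without the 2 named tumours, and Acly was -0.029 and -0.064. No paired analysis was possible because the labels give no replicate numbers that the groups share.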
